A study of Homo sapiens with 2 samples.

Results

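The 27 genes described here encode the enzymes that build cholesterol, the proteins that sense sterols and set the rate of that synthesis, and a few proteins that move sterol into, through or out of the cell. They were taken by gene symbol from a table of 60612 genes, and all 27 symbols were found, each on 1 row. The cells were MDA-MB-231, a human triple-negative breast cancer line. Both cultures were kept in RPMI-1640 with fetal bovine serum and antibiotics; the control had no D16, and the other received 24 µM D16, which the labels describe as a chalcone, for 48 h. No solvent for the control is named in the labels, and each group was 1 library, so no difference below has a replicate check and no p-value was computed. "Higher" and "lower" describe these 2 libraries only. In RNA from a whole culture, fewer cells of a kind and less RNA per cell cannot be told apart.

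Cholesterol is made from acetyl-CoA through mevalonate, farnesyl diphosphate, squalene and lanosterol, in a long chain of enzymes held mostly in the endoplasmic reticulum. When sterol in that membrane is low, SCAP carries the membrane-bound transcription factor SREBP2 to the Golgi, where it is cut and freed to switch on most genes of the chain. When sterol is high, INSIG proteins hold SCAP back, and oxysterols activate LXR, a nuclear receptor that switches on exporters such as ABCA1. INSIG1 is itself a target of SREBP2, so its message is widely used as a reporter of the pathway.

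The clearest feature was a low INSIG1 message in the treated library. INSIG1 was the most abundant of the 27 genes in the control library and ranked 13 in the treated one. Around it the pathway was uneven: all 3 enzymes from squalene synthesis to lanosterol were lower, some of the later enzymes were higher, and several genes lay at nearly equal levels in both libraries. Levels are FPKM, fragments per kilobase of transcript scaled to library depth, which account for gene length and so can be compared between genes. Each 95% interval of a ratio covers counting error only, at about 4 deposited counts per read pair.

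Promoter sequences are shown for INSIG1, LSS and SC5D, the 3 that averaged 1 FPKM or more and were 2-fold apart after 1 FPKM was added to each level, and for SREBF2, the only 1 of the genes searched with a match to the sterol regulatory element. They are the 250 bases before the RefSeq start on GRCh38.p14, written 5′ to 3′ on the strand of the gene. Capitals mark matches on either strand to the sterol regulatory element (TCACNCCAC, and a stricter 10-letter form that contains it and is the first run of capitals in SREBF2), the CCAAT box bound by NF-Y (CCAAT, or ATTGG on the other strand), the Sp1 box (GGGCGG or CCGCCC) and the E-box (CACGTG). SC5D has another RefSeq start, whose window is not printed. SREBPs are known to act on many of their targets together with NF-Y or Sp1. The windows lie at chr7:155297628-155297877 on the plus strand for INSIG1, chr21:46228775-46229024 on the minus strand for LSS, chr11:121292521-121292770 on the plus strand for SC5D and chr22:41832855-41833104 on the plus strand for SREBF2.
INSIG1: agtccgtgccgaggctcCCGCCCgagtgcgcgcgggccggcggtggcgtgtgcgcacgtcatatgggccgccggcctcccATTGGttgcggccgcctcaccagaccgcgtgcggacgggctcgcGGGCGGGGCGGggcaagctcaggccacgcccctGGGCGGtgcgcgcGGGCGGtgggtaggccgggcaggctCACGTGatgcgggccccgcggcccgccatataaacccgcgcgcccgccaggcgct
LSS: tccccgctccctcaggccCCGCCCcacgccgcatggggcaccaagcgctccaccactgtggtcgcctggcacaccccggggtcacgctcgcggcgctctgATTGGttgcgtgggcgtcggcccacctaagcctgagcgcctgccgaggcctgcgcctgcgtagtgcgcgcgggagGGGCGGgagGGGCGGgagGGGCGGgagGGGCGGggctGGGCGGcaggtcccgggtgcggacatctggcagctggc
SC5D: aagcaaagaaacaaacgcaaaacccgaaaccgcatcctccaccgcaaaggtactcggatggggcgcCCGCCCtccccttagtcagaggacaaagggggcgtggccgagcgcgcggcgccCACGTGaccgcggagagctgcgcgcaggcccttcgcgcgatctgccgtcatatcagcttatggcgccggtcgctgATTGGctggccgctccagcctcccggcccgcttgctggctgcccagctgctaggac
SREBF2: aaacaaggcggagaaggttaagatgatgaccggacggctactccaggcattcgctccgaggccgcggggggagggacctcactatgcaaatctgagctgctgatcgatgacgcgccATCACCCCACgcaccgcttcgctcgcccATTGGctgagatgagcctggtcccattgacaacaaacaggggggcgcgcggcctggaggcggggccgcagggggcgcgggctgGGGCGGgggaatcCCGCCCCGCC

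The SREBF2 window held the 10-letter element from base -134 to base -125, counted back from the start, and a CCAAT box on the other strand from -106 to -102. That 10-letter element was found in 16 of 35116 RefSeq promoter windows of 300 bases, or 0.0456%, and the looser TCACNCCAC in 1.13%. Promoter windows were matched for 23 of the 27 genes, 29 windows in all, since several genes have more than 1 start. A CCAAT box was found in 65.5% of these windows, against 34.6% of all windows and 35.5% of the windows of genes that passed the filter on expression. An Sp1 box was found in 89.7%, against 45.0% and 68.1%, and an E-box in 20.7%, against 7.26% and 9.53%. The looser sterol regulatory element was found in 1 of the 29 windows, or 3.45%, against 1.13% and 1.10%. Windows of 1 gene can overlap and hold the same site. By gene, a CCAAT box was found in 73.9% of the 23, against 39.7% of all and 44.0% of those that passed the filter. The shares by gene were 91.3%, against 48.3% and 78.7%, for the Sp1 box and 21.7%, against 8.77% and 12.8%, for the E-box. INSIG1 and LSS, both lower in the treated library, and SC5D, which was higher, all carried a CCAAT box. A match is a run of letters and shows neither binding nor its direction of action. Only the letters given above were searched, in windows of 300 bases. The lack of a match therefore does not show that a gene has no sterol regulatory element.

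**Figure D1:**
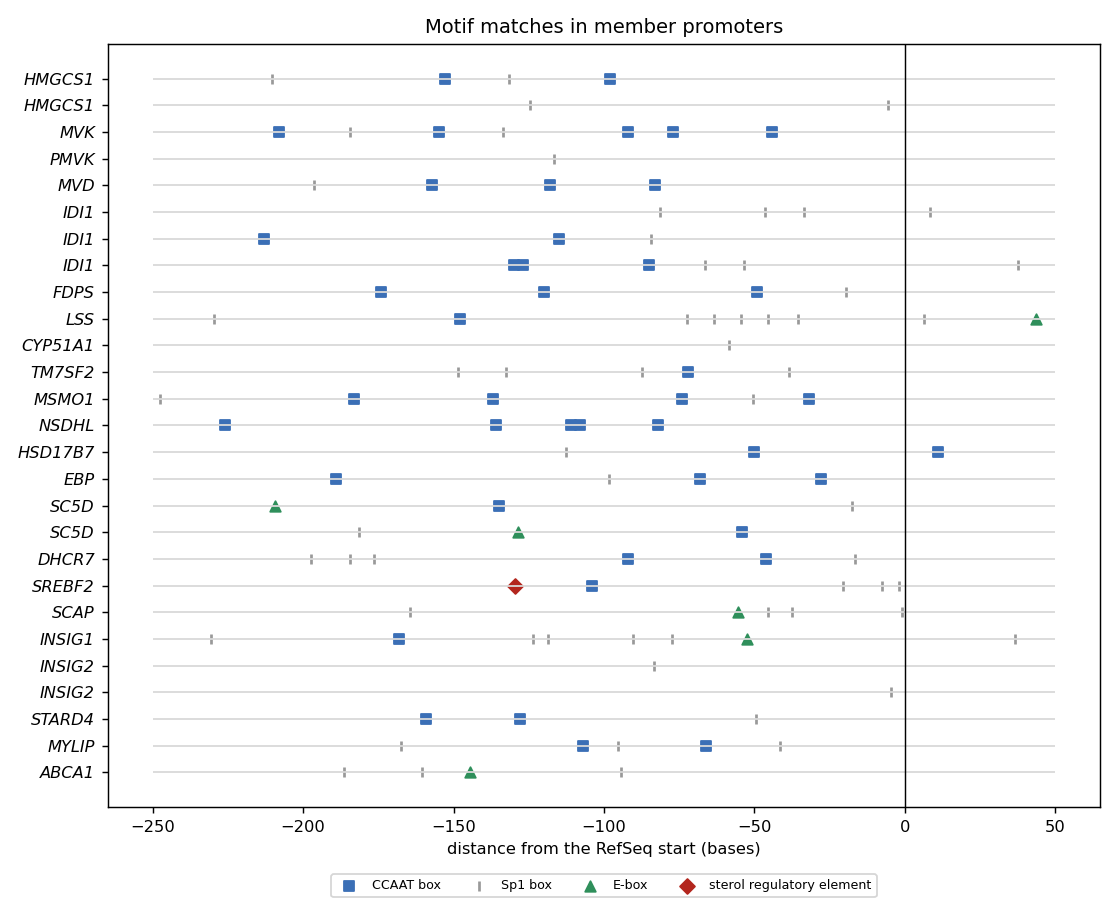
Matches to the CCAAT box (blue squares), Sp1 box (grey ticks), E-box (green triangles) and the 10-letter sterol regulatory element (red diamond) are plotted by distance in bases from the RefSeq start for the 27 windows with any match, 1 line per window. The red diamond appears in the SREBF2 window alone, while CCAAT boxes appear in 19 of the 29 windows searched.

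Both libraries were deep, at 72108404 and 73303902 counts, or about 18027101 and 18325976 read pairs. Transcripts of the 27 genes made up 0.203% of counts without D16 and 0.162% with it. The 7 markers of the line were present at 20.5 to 502 FPKM and summed to 1066 FPKM in the control and 662 FPKM in the treated library, a shift whose part in the results was not tested. In that order, VIM (502 and 259 FPKM), S100A4 (174 and 71.1), PLAU (135 and 66.2) and EGFR (25.9 and 20.5) were lower. CD44 (25.6 in both) and ANXA1 (148 and 146) were nearly level, and CAV1 (55.1 and 73.7) was higher. Of other markers, the receptor genes ESR1 and PGR were at 0.0192 FPKM or less while the third, ERBB2, stood at 5.38 and 5.72 FPKM, 3 of 4 blood markers were at 0 in both libraries, and 5 fibroblast markers reached at most 2.72 FPKM. A log2 difference below is that of FPKM + 1 between the treated and the control library, so the pseudocount shrinks it for weakly expressed genes. A mean of 1 FPKM was the filter for counts of genes, and 26 of the 27 met it. ABCG1 did not pass it.

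On that scale 2 of the 26, INSIG1 and LSS, were at least 2-fold lower, or 7.69%, beside 3.97% of 11830 genes tested. At least 2-fold higher was 1 of 26, SC5D, or 3.85%, beside 3.63% of all genes. At a threshold of 1.5-fold, 5 were lower (19.2%, beside 11.0% of all genes) and 4 higher (15.4%, beside 13.2%). Of those 4, SC5D alone was past 1.5-fold with centring and with sums made equal without mitochondrial genes, where TM7SF2 (0.47 and 0.53), EBP (0.50 and 0.53) and MYLIP (0.47 and 0.51) came inside it. The lower side moved as well. SREBF2 came inside 1.5-fold with equal sums of FPKM (-0.576). FDPS (-0.63 and -0.59) and MSMO1 (-0.63 and -0.59) passed 1.5-fold with centring and without mitochondrial genes, and FDFT1 (-0.60) with centring. Below 0 lay 15 of 26, or 57.7%, beside 43.1% of all genes, and 11 lay above it, beside 56.9%. The median was -0.28, where the median of all genes was 0.08. Without ACAT2, MVK, FDPS and DHCR7, which overlap a gene of at least 1 FPKM on the opposite strand, the median was 0.0006, and the counts past 2-fold were again 2 and 1.

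Because the 2 libraries have no common standard, each gene was also read under other scalings. Rescaling to equal sums of FPKM moved the median of all genes to 0.23, and centring on the more abundant genes, those of 5 FPKM and up, took off 0.15. Over all genes, 470 lower and 430 higher calls at 2-fold became 350 and 697 with equal sums, 675 and 303 with centring, and 576 and 337 after rescaling without mitochondrial genes. Across the deposited scale and 4 others, 14 of the 26 genes lay below 0 in every one, 6 lay above 0 in every one, and 6 changed sign. The 6 that changed sign were PMVK, MVD, CYP51A1, NSDHL, HSD17B7 and INSIG2, and they were also the 6 whose counting interval covered a ratio of 1. Mitochondrially encoded genes made up 12.6% of counts in the control and 7.59% in the treated library, so scaling by sums depends on whether they are included. The part of that share in any difference was not tested.

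**Figure D2:**
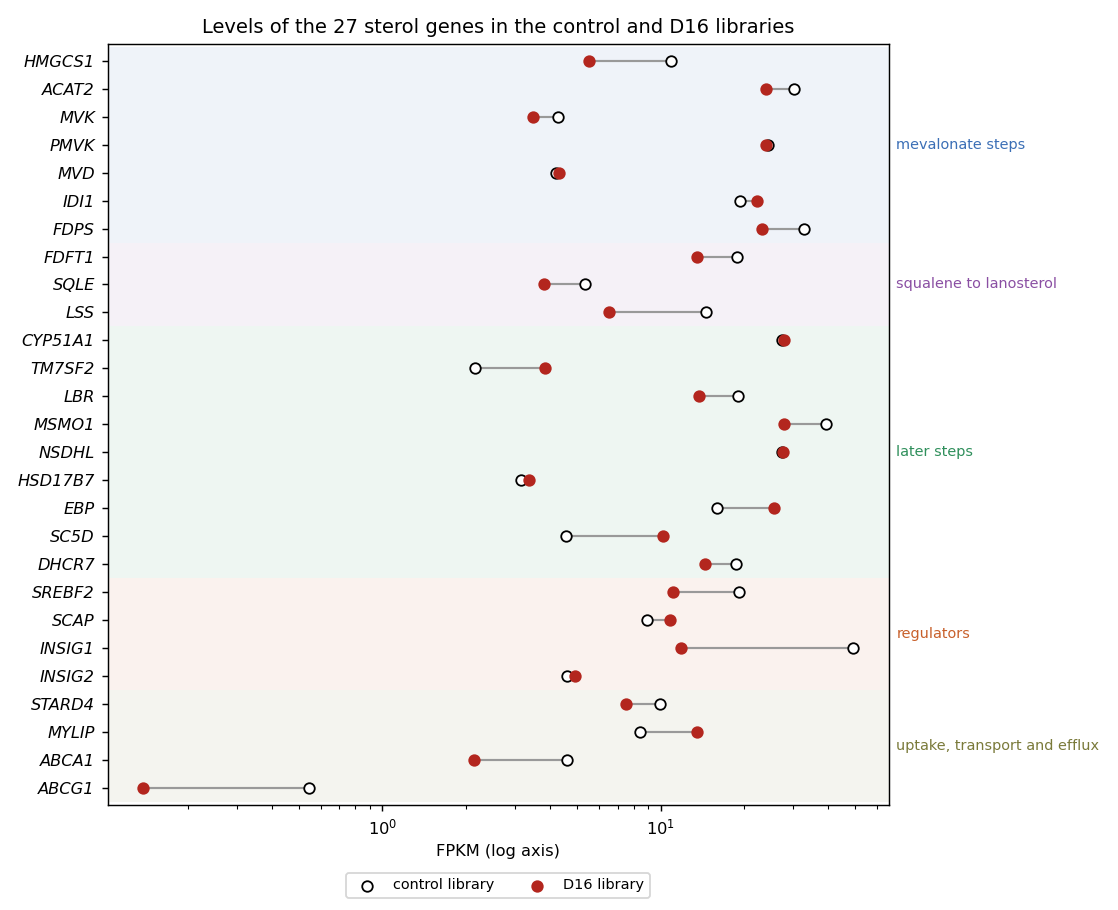
FPKM of each of the 27 genes on a log axis, with open circles for the control library and red circles for the treated library, grouped by role along the pathway. The longest gap among genes above 1 FPKM is INSIG1, from 49.2 to 11.9 FPKM, and SC5D shows the widest gap in the other direction.

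Enzymes of the mevalonate steps, which turn acetyl-CoA into farnesyl diphosphate, were mostly lower or level. HMGCS1, which condenses acetyl-CoA with acetoacetyl-CoA into HMG-CoA, stood at 10.9 FPKM in the control and 5.54 FPKM in the treated library. It was 1.96-fold lower (95% interval 1.80 to 2.14), the widest difference of the 7 enzymes, and lay between -1.004 and -0.70 on the log2 scale over the 5 scalings. ACAT2, the cytosolic thiolase that makes acetoacetyl-CoA, stood at 30.1 and 23.9 FPKM in the same order (ratio 0.796, 95% interval 0.741 to 0.855). FDPS, which makes farnesyl diphosphate and was the most abundant of the 7 in the control library, had 32.7 and 23.1 FPKM (ratio 0.707, 95% interval 0.667 to 0.751).

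The enzymes between those ends differed little. MVK, mevalonate kinase, stood at 4.29 and 3.47 FPKM (ratio 0.809, 95% interval 0.716 to 0.913). PMVK, the next kinase, stood at 24.3 and 23.953 FPKM (ratio 0.986, 95% interval 0.872 to 1.12), and MVD, the decarboxylase, at 4.20 and 4.33 FPKM (ratio 1.03, 95% interval 0.899 to 1.18). These libraries therefore do not separate PMVK or MVD beyond counting error. IDI1, the isopentenyl diphosphate isomerase, was the 1 enzyme of the 7 above 0 in all 5 scalings, at 19.2 and 22.1 FPKM (ratio 1.15, 95% interval 1.08 to 1.23). Together 5 of the 7 lay below 0 on the deposited scale, beside 43.1% of all genes. PMVK, counted among the 5, changed sign between scalings. The median of the 7 was -0.24, where that of all genes was 0.08. Their summed level was 126 FPKM in the control and 106 FPKM in the treated library.

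Some of these readings touch neighbouring genes. MVK overlaps by 326 bases the gene MMAB, which runs from it in the opposite direction and acts in cobalamin metabolism. MMAB stood at 3.90 and 1.61 FPKM, lower in the treated library as MVK was. ACAT2 overlaps by 615 bases the chaperonin gene TCP1, which stood at 41.8 and 55.8 FPKM and so differed in the other direction. FDPS overlaps RUSC1-AS1 at 1.41 and 0.730 FPKM. The second cDNA strand was U-labelled and digested, per the labels, but no source used here says whether counting took account of strand, so the part of these overlaps was not tested.

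All 3 enzymes from farnesyl diphosphate to lanosterol were lower in the treated library under all 5 scalings. FDFT1, squalene synthase, commits the chain to sterols and had 18.8 FPKM without D16 and 13.5 FPKM with it (ratio 0.718, 95% interval 0.672 to 0.767). SQLE, the epoxidase that is a rate-limiting step, had 5.33 and 3.80 FPKM (ratio 0.714, 95% interval 0.621 to 0.819). LSS, which folds the epoxide into lanosterol, had the widest difference of these, with 14.5 FPKM against 6.54 FPKM, or 2.22-fold lower (95% interval 2.06 to 2.39). The LSS gene lies at chromosome 21, 46188141 to 46228822, minus strand, in the deposited table.

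LSS was thus further from equal levels than its neighbours, and its interval did not overlap theirs. SQLE stood at 0.367 of the LSS level in the control and 0.581 in the treated library, although both were lower. LSS lay just past the 2-fold line, at -1.04 on the log2 scale, and came inside it after rescaling to equal sums (-0.88). The summed level of the 3 enzymes was 38.6 FPKM in the control and 23.8 FPKM in the treated library, a ratio of 0.617. The sum over all genes tested had a ratio of 0.881, although the median difference of all genes was 0.08. That sum includes mitochondrial genes, which held 12.6% of counts in the control and 7.59% in the treated library.

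The 9 later enzymes, which turn lanosterol into cholesterol, went both ways. Their summed level hardly differed, at 157 and 154 FPKM. On the deposited scale 6 of 9 lay above 0, beside 56.9% of all genes. Their median was 0.03, where that of all genes was 0.08. CYP51A1, NSDHL and HSD17B7, counted among the 6, changed sign between scalings. CYP51A1, the demethylase that acts first on lanosterol, stood at 27.2 and 27.8 FPKM (ratio 1.02, 95% interval 0.960 to 1.08). The next reduction can be done by either of 2 proteins, and these differed in opposite directions. TM7SF2, a reductase found in the endoplasmic reticulum, had 2.15 FPKM in the control and 3.85 FPKM with D16, or 1.79-fold more (95% interval 1.47 to 2.19). LBR, the lamin B receptor of the inner nuclear membrane, carries the same activity and had 18.9 and 13.7 FPKM (ratio 0.725, 95% interval 0.681 to 0.772). LBR was the more abundant in both libraries, by 8.81-fold in the control and 3.57-fold in the treated library.

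Demethylation of the ring then needs MSMO1, NSDHL and HSD17B7. MSMO1, the oxidase, had 39.2 and 27.8 FPKM (ratio 0.710, 95% interval 0.667 to 0.755), and its level was the highest of the 27 genes in the treated library, with CYP51A1 next. NSDHL, the dehydrogenase, stood at 27.2 and 27.6 FPKM (ratio 1.02, 95% interval 0.936 to 1.10). HSD17B7, the ketoreductase, stood at 3.15 and 3.38 FPKM (ratio 1.07, 95% interval 0.918 to 1.25), with its pseudogene HSD17B7P2 at 1.40 and 1.27 FPKM. That was the only 1 of 16 pseudogenes named after these genes to reach a mean of 1 FPKM, and whether HSD17B7 shares reads with it was not tested.

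Higher members were found near the end of the chain. EBP, the sterol isomerase, had 15.9 FPKM in the control and 25.5 FPKM with D16, or 1.60-fold more (95% interval 1.44 to 1.77). SC5D, the desaturase that follows it, had 4.57 and 10.2 FPKM, or 2.22-fold more (95% interval 2.06 to 2.40). DHCR7, which performs the last reduction in one branch of the chain, was on the lower side, with 18.7 and 14.4 FPKM (ratio 0.774, 95% interval 0.719 to 0.832). The level of SC5D against DHCR7 was therefore 0.245 in the control and 0.704 in the treated library. SC5D lies at chromosome 11, 121292681 to 121308630, plus strand. It was barely past 2-fold on the log2 scale, at 1.003, and was inside it after centring (0.86) and after rescaling without mitochondrial genes (0.90). DHCR7 overlaps the transcript AP002387 on the opposite strand, which stood at 13.5 and 7.33 FPKM.

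**Figure D3:**
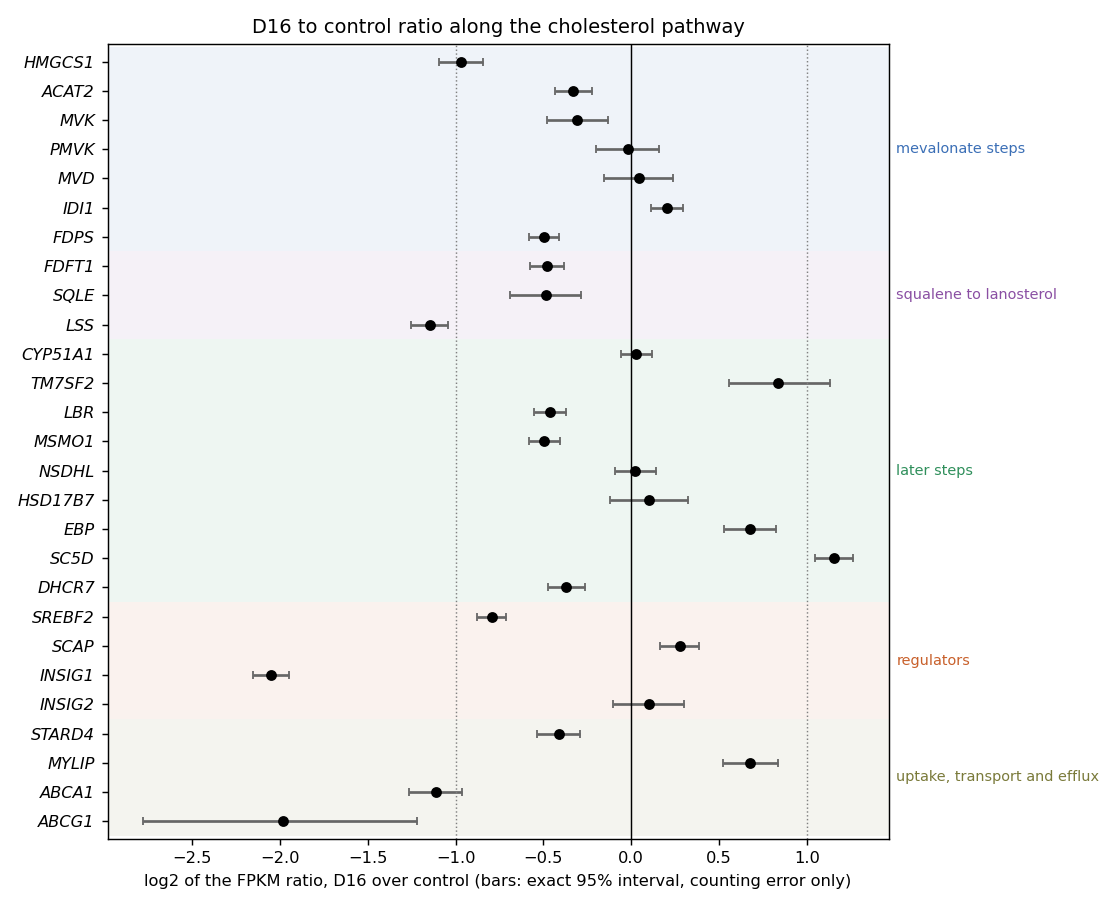
Log2 ratio of treated to control FPKM for the 27 genes in pathway order, with exact 95% intervals that hold counting error only; the solid line marks equal levels and the dotted lines mark 2-fold. LSS, ABCA1, ABCG1 and INSIG1 lie left of the lower dotted line and SC5D lies right of the upper one, while 6 intervals cross the solid line.

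Among the 4 regulators, INSIG1 stood apart. INSIG1, which retains SCAP in the endoplasmic reticulum when sterol is plentiful, stood at 49.2 FPKM in the control and 11.9 FPKM in the treated library, from 3792 and 951 read pairs. It was 4.15-fold lower (95% interval 3.86 to 4.46). Its log2 difference of -1.96 was exceeded downward by 58 of 11830 genes tested, and it lay between -2.11 and -1.80 under the 5 scalings. INSIG1 lies at chromosome 7, 155297776 to 155310233, plus strand.

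INSIG2 performs the same task as INSIG1, but its gene is not driven by SREBP2 in the way that INSIG1 is. It stood at 4.60 and 4.93 FPKM (ratio 1.07, 95% interval 0.931 to 1.23). INSIG1 was thus 10.7-fold more abundant than INSIG2 in the control library and 2.40-fold in the treated one. SREBF2, the gene of SREBP2, had 19.2 FPKM without D16 and 11.045 FPKM with it, or 1.74-fold less (95% interval 1.64 to 1.84). SREBF2 lies at chromosome 22, 41833079 to 41907307, plus strand, and its antisense gene SREBF2-AS1 stood at 0.745 and 1.16 FPKM. SCAP, the escort protein, stood at 8.91 and 10.8 FPKM (ratio 1.21, 95% interval 1.12 to 1.31). INSIG1 stood at 5.51 times the level of SCAP in the control library and 1.10 times in the treated one.

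Genes that move sterol did not share a direction. STARD4, a soluble carrier that delivers sterol between membranes, had 9.96 and 7.48 FPKM (ratio 0.751, 95% interval 0.688 to 0.818). MYLIP, an LXR target and ubiquitin ligase that sends lipoprotein receptors for degradation, had 8.45 and 13.5 FPKM, or 1.60-fold more (95% interval 1.44 to 1.78). ABCA1, an LXR target that loads cholesterol onto lipid-poor apolipoprotein, had 4.60 and 2.13 FPKM, or 2.16-fold less (95% interval 1.95 to 2.41). Its log2 difference with the pseudocount was -0.84, and it passed 2-fold with a pseudocount of 0.1 FPKM (-1.08) and with TMM-scaled counts (-1.10).

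ABCG1, the LXR target that exports sterol to mature high-density lipoprotein, was the lowest of the 27 genes in both libraries. It stood at 0.545 and 0.138 FPKM, from 71 and 19 read pairs, and was 3.95-fold lower with a wide interval (95% interval 2.33 to 6.87). The exporters ABCA1 and ABCG1 were therefore both lower while MYLIP, which LXR also drives, was higher. MYLIP lay above 0 and the 2 exporters below 0 under all 5 scalings.

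**Figure D4:**
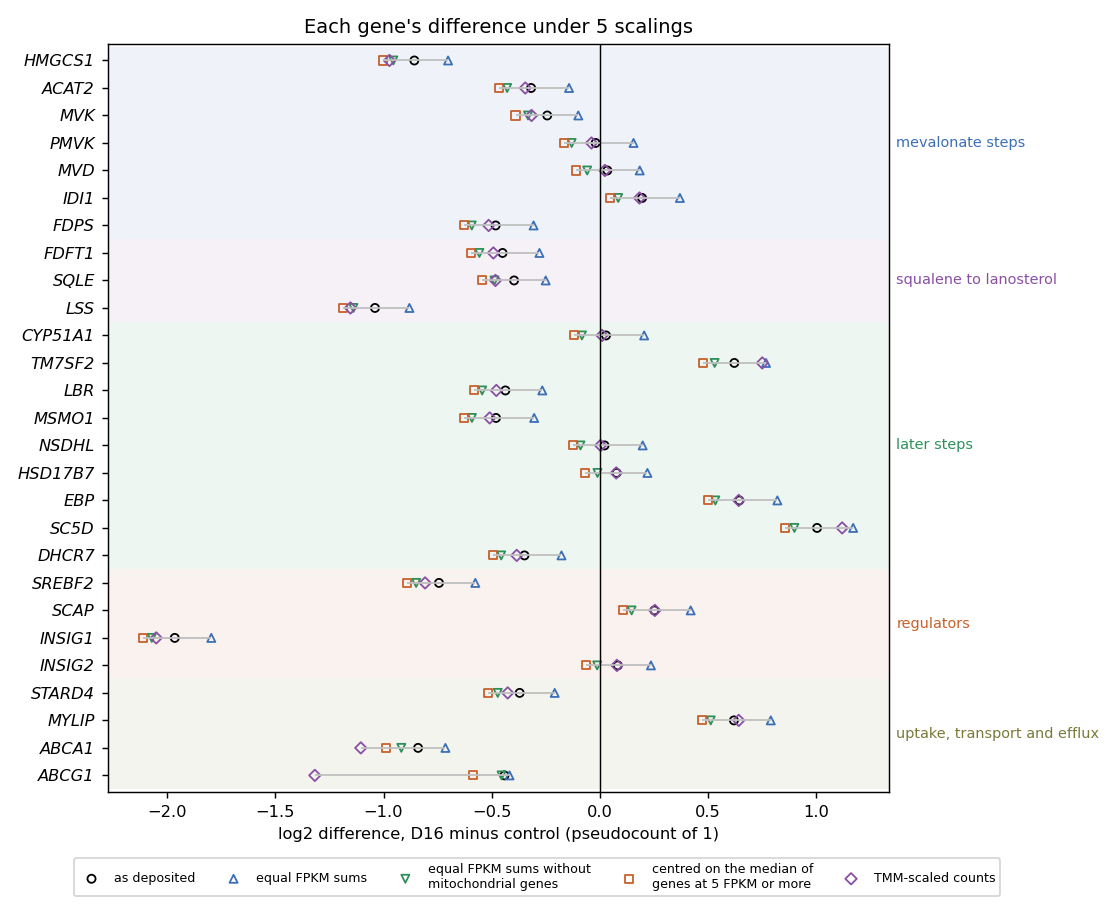
Log2 difference of each gene under 5 scalings, shown as 5 symbols joined by a line, with 1 FPKM (for TMM-scaled counts, 1 CPM) as the pseudocount. INSIG1, LSS, HMGCS1, SREBF2 and ABCA1 lie left of 0 and SC5D, EBP, TM7SF2 and MYLIP right of it in all 5, whereas CYP51A1, NSDHL and INSIG2 straddle it.

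Other genes of the pathway were read from 5 lists of 88 symbols, of which 86 were found and 75 had a mean of at least 1 FPKM. Their calls are on log2(FPKM + 1), where 3.97% of all genes passed 2-fold on the lower side and 3.63% on the higher side, with 43.1% below 0 and 56.9% above 0. Proteins that cut SREBPs or control sterol sensing in the membrane had 7 of 14 below 0 and a median of 0.08, equal to that of all genes. The 1 member at least 2-fold apart was SREBF1, whose SREBP1 product drives fatty acid synthesis, at 10.7 and 3.27 FPKM and -1.45 on the log2 scale. SREBF2 was thus 1.80-fold more abundant than SREBF1 in the control library and 3.38-fold in the treated one. The proteases MBTPS1 and MBTPS2, which free SREBPs in the Golgi, stood at 9.09 and 6.87 FPKM and at 4.65 and 4.49 FPKM.

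Enzymes of the isoprenoid branch, which divert farnesyl diphosphate to protein prenylation, dolichol and ubiquinone, had 9 of 15 above 0, a median of 0.21 and none at least 2-fold apart, shares close to those of all genes. GGPS1, which competes with FDFT1 for that substrate, stood at 6.38 and 6.41 FPKM. FDFT1 was 2.94-fold more abundant than GGPS1 in the control and 2.10-fold in the treated library. Electron donors and accessory factors of the sterol enzymes had a median of -0.12 with 7 of 14 below 0 and none 2-fold apart. POR, which passes electrons to CYP51A1 and SQLE, stood at 5.04 and 10.01 FPKM, just within 2-fold on the log2 scale at 0.87.

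Genes of sterol transport, storage and lysosomal release had 11 of 22 below 0 and a median of 0.0004. ABCA2, a lysosomal transporter, was the 1 past 2-fold on that scale, at 4.53 and 1.68 FPKM. LRP1, an endocytic receptor for lipoproteins, lay inside it at -0.88, although its plain FPKM, 2.76 and 1.04, differed 2.64-fold. Genes of LXR and of oxysterol metabolism had 7 of 10 below 0 and a median of -0.38. The receptors themselves, NR1H3 (LXR alpha) and NR1H2 (LXR beta), stood at 1.31 and 1.24 FPKM and at 11.5 and 13.6 FPKM. None of the 75 was at least 2-fold higher, where 3.63% of all genes were.

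**Figure D5:**
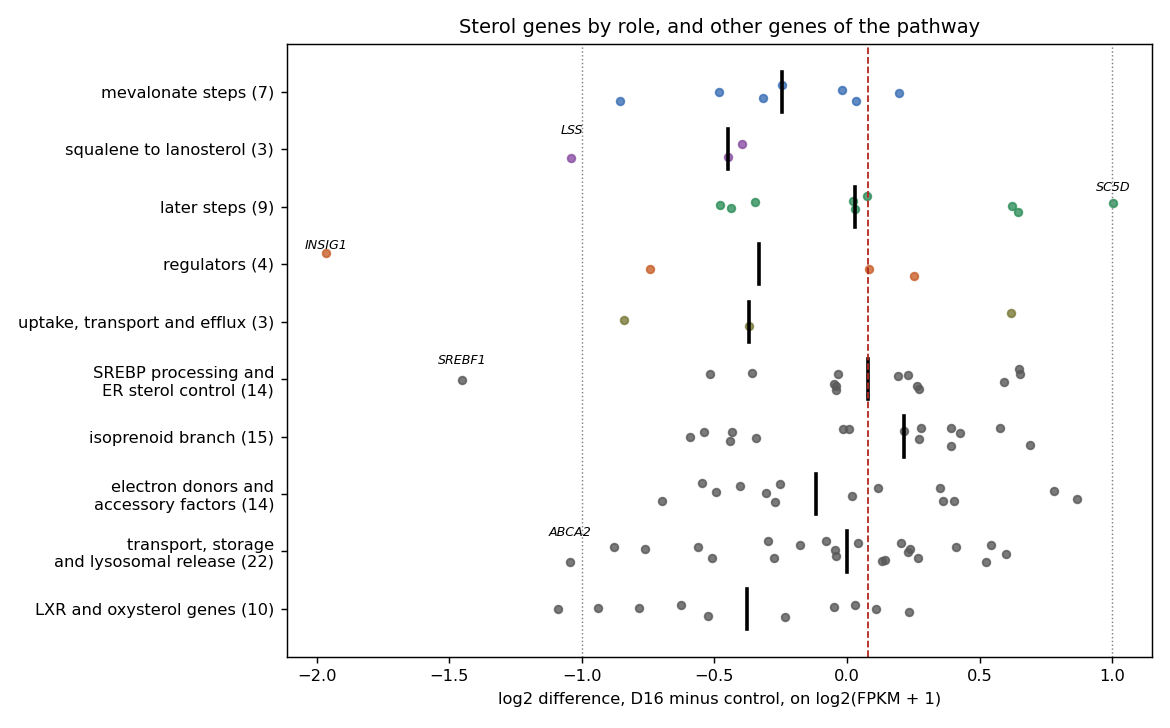
Log2 difference on log2(FPKM + 1) for the 26 genes that passed the filter by role (coloured) and for 75 other genes of the pathway in 5 lists (grey), with the number of genes in brackets, a black bar at each median, a dashed line at the median of all genes tested and dotted lines at 2-fold. Names mark INSIG1, LSS, SREBF1 and ABCA2, past 2-fold on the lower side, and SC5D on the higher side; genes of the LXR list are not named.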

How the data were processed

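RNA-seq libraries of 1 control and 1 D16-treated culture were compared. TRIzol RNA was sequenced from both ends of each fragment, per the labels' protocols. Tools named in the submitters' processing notes are HISAT2 2.0.4, StringTie 1.3.4d and cutadapt 1.9, and no source used here names the build. All 27 gene identifiers were found in GENCODE 29 (GRCh38), and 99.0% of the 58394 matched identifiers had both ends within 50000 bases. FPKM values were deposited by the authors, named so per the file headers, and 0.0001 was read as 0. The deposited estimated counts are whole numbers that follow the FPKM, since both units gave the same ratio, within 1% after a factor of 0.962, for 98.4% of the 13018 genes that reached 100 counts in both libraries. Low counts pile up at 4 (473, 1308 and 254 control genes at 3, 4 and 5), so 4 counts were taken as 1 read pair.

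The members and lists were chosen with earlier results of these data known. Every member is given. Of the other lists, genes at least 2-fold apart were to be named, at most 3 a list; MBTPS1, MBTPS2, GGPS1, POR, LRP1, NR1H2 and NR1H3 were named after their values were seen, and 1 gene that met the rule is not reported here. The treated share of a gene's read pairs was given an exact 95% interval (Clopper-Pearson), which was turned into a ratio. Alternatives were other pseudocounts, filters, thresholds and scalings, with TMM factors from edgeR 4.0.16 on rounded counts. Rescaling without mitochondrial genes and leaving out overlapped members were added after the data were seen. Scripts were tested on simulated data. The 8 per-sample columns in the authors' other tables were left out. Promoter sequences are from RefSeq on GRCh38.p14. Python 3.11.15, numpy 2.4.6, pandas 2.3.3 and scipy 1.17.1 were used.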

Additional observations from a re-analysis of the deposited data

How the results depend on the processing

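The count of members at least 2-fold lower was 2 and of those higher 1. With a pseudocount of 5 FPKM they were 1 and 0, and at a 1.5-fold threshold 5 and 4. The lower count was 1 with equal sums of FPKM. The higher count was 0 with centring and when sums were made equal without mitochondrial genes. The median of -0.28 was -0.18 with a pseudocount of 5 FPKM, -0.12 with equal sums, -0.43 with centring, and 0.0006 without the 4 members that overlap another gene, where fewer genes enter. Under the other settings the counts and the median stayed within 1.5 times, and INSIG1 was among the lower genes in every setting. Over all genes, the 470 lower and 430 higher calls were 847 and 717 with a pseudocount of 0.1 FPKM and 139 and 150 with 5 FPKM. By its formula, a larger pseudocount shrinks a log2 difference more. With TMM-scaled counts, which took 1 CPM as the pseudocount, the calls were 742 and 562. The part of that change of unit was not tested. Summing rows of 1 symbol changed none of the 3 values, since no member's symbol was repeated. No paired analysis was possible because each group holds 1 library, and for the same reason no library could be left out. Depth limits ABCG1 most, at 71 and 19 read pairs.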
